A study of Mus musculus with 6 samples.

Results

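The tripartite motif (TRIM) family is a group of proteins built from a RING finger, B-box domains and a coiled coil, most of which act as E3 ubiquitin ligases. In the tables of gene abundance, 68 of 56884 genes had a symbol made of Trim, a number and at most 1 further letter, and these 68 are the members described here. TPM is an abundance per transcript length, scaled to the same total in each library. For the comparison, 42 members were kept because at least 3 of the 6 libraries reached a TPM of 0.5, and 15426 genes were kept in all. RNA came from a mouse cell line of the stromal vascular fraction (SVF) of subcutaneous white adipose tissue (scWAT), the fraction that holds adipocyte precursors. By the study's methods the line was immortalized, received HA-tagged mouse PPARγ2 (PPARr2 in the labels) from a retroviral vector, and was selected with puromycin as a stable line. One group carried PPARr2 K382Q, in which glutamine stands in for an acetylated lysine, and the other carried PPARr2 K382R, in which arginine stands in for the lysine without acetylation, with 3 biological replicates of each. All 6 libraries were taken at day 2 of beige adipocyte differentiation, induced with isobutylmethylxanthine, indomethacin, dexamethasone, insulin, T3 and rosiglitazone. No cells without a mutant were analysed here. Whether a line is 1 clone, and whether replicates came from separate transductions, is not given in the sources used here, so the p-values measure the spread between these cultures. In the text, K382Q cells and K382R cells stand for the 2 groups.

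TRIM proteins join ubiquitin to targets that include sensors of foreign RNA and DNA, their adaptors and the kinases behind them, and some raise while others restrain the interferon (IFN) response. IFN in turn induces part of the family through IFN-stimulated response elements (ISREs), DNA sites bound by STAT and IRF factors. The remaining members have other work, such as transcriptional co-repression (TRIM28), control of the cytoskeleton or turnover of muscle proteins. A list of 16 IFN-inducible members was drawn from general knowledge of mouse cells treated with IFN, and the other 52 members form the rest of the family.

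The aligned sequence came to 5.96, 7.50 and 5.95 Gb in K382Q cells and 7.79, 8.15 and 6.53 Gb in K382R cells. *Pparg*, whose TPM can hold reads of both the vector and the cell's own gene, had a TPM of 1104 to 1333 in K382Q cells and 1590 to 1632 in K382R cells, and its part in the results was not tested. Defining adipocyte genes were present, at a summed TPM of 52504 to 56108 over 7 markers in K382Q cells and 43734 to 44879 in K382R cells. Most of that sum was *Fabp4*, and of the 7 markers 4 were lower, 2 were higher (*Fabp4* and *Cd36*) and 1 was not called in K382Q cells. The 6 fibroblast and preadipocyte markers summed to 509 to 553 against 870 to 906. All 6 of these fibroblast markers were lower in K382Q cells, and the part of either marker list in the results below was not tested. In such bulk samples, fewer cells of a type and less RNA per cell cannot be told apart. Of 8 leukocyte markers 3 were listed at 0 in every library, only *Cd68* passed the filter, and the summed level of 3.54 to 4.69 in K382Q cells overlapped that of 3.46 to 5.18 in K382R cells. The 4 endothelial markers summed to 1.57 to 2.23 against 1.69 to 1.82, also with overlap. Of 6 skeletal muscle markers 4 were at 0 (*Myod1*, *Myog*, *Myh1* and *Myh4*), and *Acta1*, the 1 that passed the filter, was lower in K382Q cells, the list summing to 2.21 to 2.97 against 4.59 to 5.76, and its part in the results was not tested. *Hoxc9*, a white and beige marker, was lower in K382Q cells, at a TPM of 16.8 to 18.9 against 25.3 to 25.9, and its part in the results was not tested. The brown markers *Zic1* and *Meox1* were listed at 0 throughout.

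Most of the IFN-inducible members were lower in K382Q cells, and most of the other members were not called. Of 13 IFN-inducible members that were kept, 11 were lower and none was higher at an adjusted p-value under 0.05 (limma on log2(TPM + 0.5), Benjamini-Hochberg adjustment over 15426 genes), where 36.9% of all genes tested were called lower and 11.1% higher. At an unadjusted p under 0.05 (limma) 0 of the 13 were higher, since all 13 fold changes were below 0. Of the 29 other members kept, 10 were lower and 1, *Trim66*, was higher. The median log2 fold change was -0.50 in the IFN-inducible members and -0.15 in the others, beside -0.14 over all genes tested. With median-ratio scaling, which centres the typical gene, the median of all genes was 0.0032 and those of the lists were -0.37 and 0.0036. Under that scaling 9 of 13 IFN-inducible members and 6 of 29 others were lower, where 20.4% of all genes were called lower and 19.8% higher. For all 13 IFN-inducible members the 3 K382Q libraries lay below the 3 K382R libraries, as they did for 14 of the 29 others and for 42.8% of all genes (14.1% lay above). The difference between the 2 lists was not tested. *Trim17* passed the filter only through the K382R libraries and so had to be lower; without it 9 of 28 other members were lower.

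**Figure D1:**
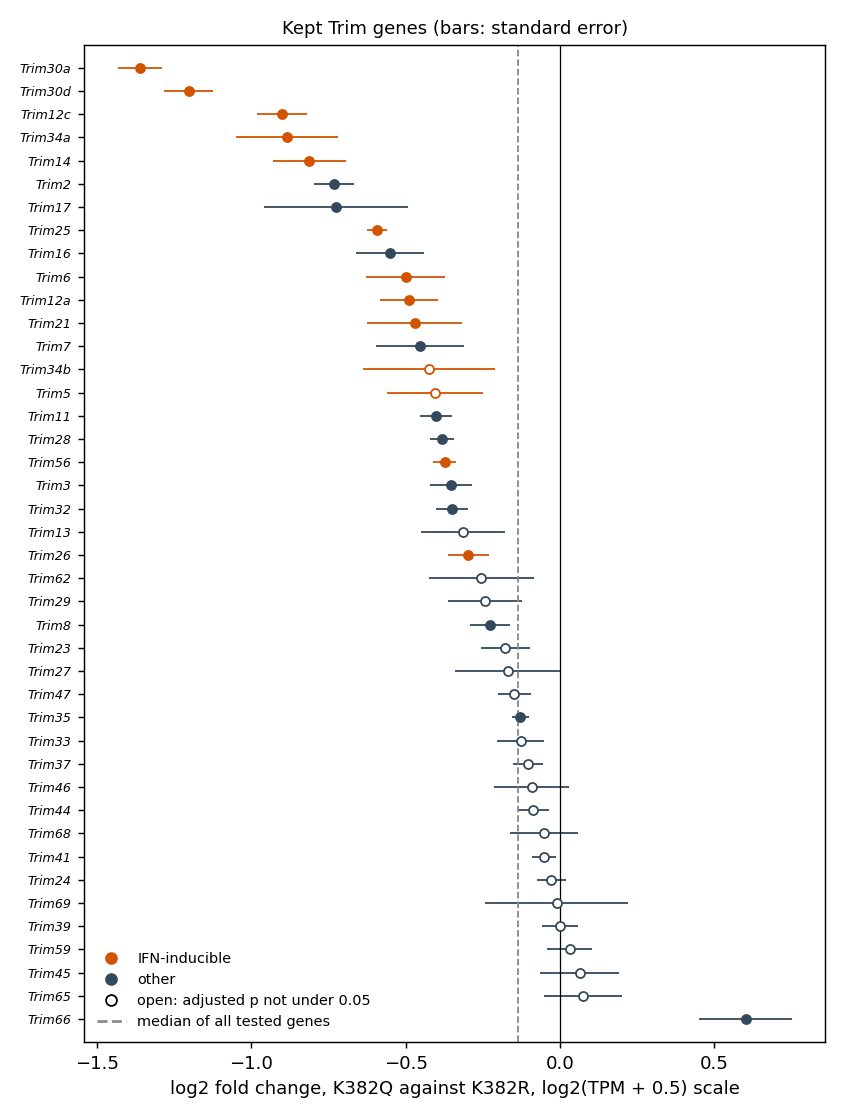
Log2 fold change of the 42 kept *Trim* genes in K382Q cells against K382R cells, on the log2(TPM + 0.5) scale, with standard errors. The IFN-inducible members (orange) run from -1.36 for *Trim30a* to -0.30 for *Trim26*, filled points have an adjusted p under 0.05, and the dashed line is the median of all genes tested, -0.14.

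*Trim30a* had the largest change of the 42 on the log2(TPM + 0.5) scale. It encodes a ligase known to restrain NF-κB signalling by driving the loss of TAB2 and TAB3. *Trim30a* (ENSMUSG00000030921.18, chromosome 7, 104058232 to 104114400 of GRCm39) had a TPM of 11.4, 10.7 and 10.2 in K382Q cells and 29.5, 29.9 and 26.1 in K382R cells. The groups were far apart, the highest K382Q library lying well below the lowest K382R library. The mean in K382Q cells was 37.8% of that in K382R cells, and the log2 fold change was -1.36 ± 0.0712 (SE; limma, adjusted p = 5.48e-06). Its neighbour and paralog *Trim30d* (ENSMUSG00000057596.14, chromosome 7, 104119221 to 104157056) had a TPM of 6.18, 6.20 and 5.53 against 13.5, 15.3 and 14.4. Again no library of one group reached the other group, and the log2 fold change was -1.20 ± 0.0791 (SE; limma, adjusted p = 1.67e-05). On the log2(TPM + 0.5) scale these were the only members of the 42 that fell by over 2-fold with an adjusted p under 0.05, a rule that 2.61% of all genes met in this direction. That scale shrinks the change of low genes, and the mean TPM of the low gene *Trim17* in K382Q cells was 34.3% of that in K382R cells, with a log2 fold change of -1.34 at a pseudocount of 0.1 (adjusted p = 0.0421; 0.0214 to 0.107 over the alternatives). Both also met it with median-ratio scaling, at -1.21 and -1.06, as 1.92% of all genes did. Of the 75-base words in annotated *Trim30a* transcripts, 2.05% also occur in transcripts of other members, and 5.24% for *Trim30d*, so little of their sequence is shared at that length.

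The starts of these genes carry a match to the ISRE core. The promoter table of RefSeq (GRCm38.p6), 250 bases before and 50 after each start site, was searched for GAAA, any 2 bases and GAAA again, and on the other strand for TTTC, any 2 bases and TTTC, and the promoters were placed on GRCm39 by exact match. The 100 bases before the start of *Trim30a* and of *Trim30d* are printed because this pair fell most on the log2(TPM + 0.5) scale, with the match in capitals.
*Trim30a*, chr7:104114401-104114500, minus strand: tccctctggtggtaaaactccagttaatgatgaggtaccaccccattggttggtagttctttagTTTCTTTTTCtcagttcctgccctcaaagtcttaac
*Trim30d*, chr7:104157057-104157156, minus strand: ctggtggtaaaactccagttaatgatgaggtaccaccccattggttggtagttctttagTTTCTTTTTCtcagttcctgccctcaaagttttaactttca
Aligned at the match, 94 of 95 bases of the pair were identical. The match begins 36 bases before the start of *Trim30a* and 41 before that of *Trim30d*.

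Among the 53 members in the promoter table, 9 held a match, against 3.99% of the 27025 genes of the table. Of 15 IFN-inducible members with an entry 8 had a match, and of 38 others 1 did. The windows of 30 bases around the matches are printed to show how far members share the site.
*Trim30a*, chr7:104114417-104114446, minus strand: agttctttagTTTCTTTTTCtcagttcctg
*Trim30d*, chr7:104157078-104157107, minus strand: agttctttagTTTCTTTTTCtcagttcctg
*Trim12c*, chr7:104002566-104002595, minus strand: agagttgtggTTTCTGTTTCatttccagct
*Trim12a*, chr7:103964673-103964702, minus strand: agagttgtggTTTCTGTTTCatttccagag
*Trim5*, minus strand: agagttgtggTTTCTGTTTCatttccagag
*Trim34a*, chr7:103893664-103893693, plus strand: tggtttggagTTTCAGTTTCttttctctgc
*Trim21*, chr7:102214654-102214683, minus strand: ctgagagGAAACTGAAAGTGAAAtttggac
*Trim26*, chr17:37147871-37147900, plus strand: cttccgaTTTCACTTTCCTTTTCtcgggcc
*Trim2*, chr3:84120098-84120127, minus strand: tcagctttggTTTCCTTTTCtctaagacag
The windows of *Trim30a* and *Trim30d* were identical over 30 of 30 bases, as were those of *Trim12a* and *Trim5*, and that of *Trim12c* shared 28 of 30 with the latter pair. The promoter of *Trim5* matched GRCm39 at 2 places, so no position is given. In *Trim21* and *Trim26* 2 overlapping matches form 1 run of 16 bases. *Trim2*, whose match lies 29 bases after 1 of its 5 listed start sites, was the member outside the IFN-inducible list. *Trim30a* has a second listed start site, with a match from base 3 after it and 26 of 30 bases in common with the first window. Of the 9 kept members with a match 8 were lower and 1 was not called, with a median log2 fold change of -0.73, where 36.9% of all genes tested were lower. That median is the value of *Trim2*. Of the 23 kept members with an entry and no match 6 were lower, 1 was higher and 16 were not called, with a median of -0.15. With median-ratio scaling, where 20.4% of all genes were lower, some calls were lost. They were those of *Trim21* and *Trim26* with a match (adjusted p = 0.129 and 0.119, limma) and *Trim7* without (adjusted p = 0.108). This is a description of letters in a window. It was not tested, 6 of the 9 lie in 1 gene cluster, and the IFN-inducible members *Trim6*, which is in that cluster, *Trim25* and *Trim56* were lower with no match, as were *Trim7*, *Trim28* and *Trim32* of the others. A GAS core, TTCNNNGAA, which reads the same on both strands, occurred in 2 of 15 IFN-inducible members with an entry, in 4 of 38 other members and in 9.55% of all genes of the table. Members with no entry were *Trim3*, *Trim8*, *Trim11*, *Trim14*, *Trim16*, *Trim17*, *Trim29*, *Trim33*, *Trim35*, *Trim36*, *Trim43b*, *Trim43c*, *Trim50*, *Trim55* and *Trim65*.

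*Trim30a* and *Trim30d* lie at one end of a cluster of 10 members on chromosome 7 (103868000 to 104157056 of GRCm39, 289 kb), whose genes resemble human *TRIM5*, *TRIM6*, *TRIM22* and *TRIM34*. Of the 10, 8 were kept, 6 were lower and 2 were not called, where 36.9% of all genes tested were lower. The summed TPM of the cluster was 38.8, 38.2 and 35.8 in K382Q cells and 77.2, 81.7 and 75.8 in K382R cells. Every K382R library was thus above every K382Q library. *Trim12c*, which encodes a ligase known to act with TRAF6 in type I IFN and NF-κB signalling, had a TPM of 5.97, 5.18 and 5.69 against 10.3, 11.4 and 11.0. Its log2 fold change was -0.90 ± 0.0809 (SE; limma, adjusted p = 7.66e-05). *Trim12a*, a close paralog, was 7.78 ± 0.669 (SD, n = 3) in K382Q cells beside 11.1 ± 0.981 (SD, n = 3) as TPM, which gave -0.49 ± 0.0931 (SE; limma, adjusted p = 0.00345) on the log2 scale. Whether the changes of the 2 paralogs differ was not tested. *Trim34a* had a TPM of 3.58, 5.63 and 4.03 in K382Q cells and 7.28, 8.63 and 9.56 in K382R cells. The groups did not overlap, but the replicates were wide, and the log2 fold change was -0.88 ± 0.165 (SE; limma, adjusted p = 0.00313). Its near copy *Trim34b* was low, at 0.500, 0.206 and 0.376 against 0.675, 0.752 and 0.517, and was not called (log2 fold change -0.42, 95% confidence interval -0.92 to 0.07, adjusted p = 0.143, limma). Of its 75-base words 35.4% also occur in *Trim34a* transcripts and 27.5% the other way, so the split of reads between the pair is uncertain. The shares were 19.4% for *Trim12c* and 18.7% for *Trim5*.

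*Trim6*, whose product builds unanchored ubiquitin chains that activate the kinase IKKε, had a TPM of 2.23, 1.74 and 2.30 against 3.20, 3.06 and 3.19. No values overlapped, and the log2 fold change was -0.50 ± 0.127 (SE; limma, adjusted p = 0.0130). Its adjusted p was 0.0510 when no filter on low values was used. *Trim5*, related to the primate retrovirus restriction factor, was near the filter at 0.610, 0.610 and 0.662 against 0.936, 1.06 and 0.985. The groups were separate, yet it was not called (log2 fold change -0.40, 95% confidence interval -0.77 to -0.04, adjusted p = 0.0660, limma), and without the intensity trend in the variance its adjusted p was 0.00191 (0.00191 to 0.160 over the alternatives). *Trim30b* and *Trim30c* were under the filter, with no library above a TPM of 0.211. Of 8 further genes inside the cluster 2 passed the filter, *Gm45471* and *Gm16464*, with log2 fold changes of -1.21 (adjusted p = 0.00673, limma) and -0.18 (adjusted p = 0.493). At a mean TPM of 0.494 over all libraries, *Gm45471* passed the filter only through the K382R libraries and so had to be lower. *Gm16464* lies within *Trim30d* on the same strand.

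**Figure D2:**
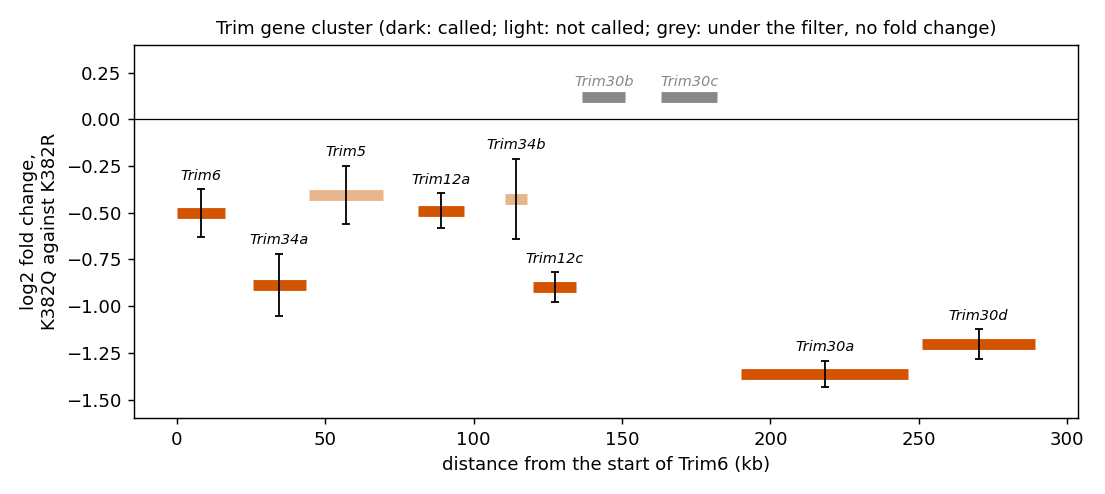
Log2 fold change of the members in the chromosome 7 cluster against distance from the start of *Trim6* in kb, with each bar spanning the gene and its standard error drawn at the middle. Values ran from -1.36 for *Trim30a* to -0.40 for *Trim5*, and the grey genes *Trim30b* and *Trim30c* were under the filter and have no fold change.

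The 5 kept IFN-inducible members outside the cluster were all lower, with a median log2 fold change of -0.47, beside 36.9% of all genes lower and a median of -0.14. With median-ratio scaling 3 of the 5 were lower, beside 20.4% of all genes. *Trim25*, which encodes a ligase of the RNA sensor RIG-I, was the most abundant member of the list. *Trim25* (ENSMUSG00000000275.17, chromosome 11, 88890202 to 88911119) had a TPM of 91.7, 88.6 and 87.5 in K382Q cells and 134, 137 and 134 in K382R cells. The replicates of each group were close together, and the log2 fold change was -0.59 ± 0.0312 (SE; limma, adjusted p = 5.62e-06). *Trim14*, a member without a RING finger that is known as an adaptor at MAVS, had 3.17, 4.08 and 3.26 against 7.13, 6.36 and 6.04. Its log2 fold change was -0.81 ± 0.118 (SE; limma, adjusted p = 0.000857). It rests on a coverage of 1.21 to 3.64 reads per base, and *Nans*, a gene on the other strand at a mean TPM of 77.3, overlaps it over 9852 bases, so that without strand information reads of the 2 genes cannot be told apart where their exons meet. *Trim56*, tied to STING and TLR3 signalling, had 29.4, 28.2 and 28.9 against 37.7, 37.6 and 37.2, a narrow spread around a small difference of -0.37 ± 0.0386 (SE; limma, adjusted p = 0.000155). *Trim26*, which acts on TBK1 signalling, had 34.8, 36.1 and 32.3 against 39.3, 45.8 and 42.2. It was lower as TPM, at -0.30 ± 0.0663 (SE; limma, adjusted p = 0.00725), and was not called with median-ratio scaling (-0.15, adjusted p = 0.119) or quantile normalization (adjusted p = 0.152).

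*Trim21* encodes the cytosolic receptor for antibody-coated particles. Its TPM was 5.80, 5.29 and 4.05 in K382Q cells and 7.56, 8.03 and 5.91 in K382R cells, so the lowest K382R library was only just above the highest K382Q library. The log2 fold change was -0.47 ± 0.154 (SE; limma, adjusted p = 0.0373), and the call depended on single libraries. The adjusted p was 0.0653 without K382Q replicate 2, 0.101 without K382Q replicate 3, 0.105 without K382R replicate 1 and 0.116 without K382R replicate 2, and 0.129 with median-ratio scaling (0.00918 to 0.129 over the alternatives). The remaining member of the list, *Trim38*, was under the filter, with a TPM of 0.328, 0.277 and 0.418 against 0.125, 0.497 and 0.632, and the groups overlapped.

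**Figure D3:**
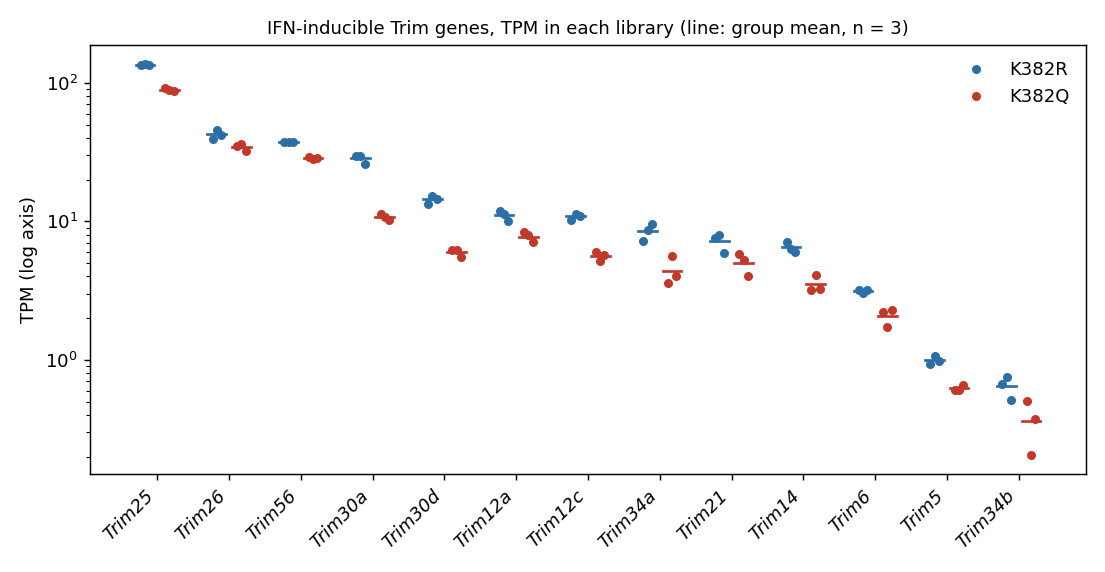
TPM of the 13 kept IFN-inducible *Trim* genes in each library, on a log axis, with K382R in blue, K382Q in red and a line at each group mean (n = 3). The blue points lie above the red points for each gene, from *Trim25* at 135 against 89.3 down to *Trim34b* at 0.648 against 0.361.

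Added together, the 16 IFN-inducible members had a TPM of 199 ± 5.98 (SD, n = 3) in K382Q cells and 307 ± 8.24 (SD, n = 3) in K382R cells, and the 52 others 656 ± 18.2 against 747 ± 14.7. The IFN-inducible share of all TRIM transcripts was 23.3% ± 0.271 in K382Q cells and 29.1% ± 0.828 in K382R cells (SD, n = 3), with no overlap. These shares are taken within each library and so do not depend on its scaling. *Trim25* made up 44.9% of the IFN-inducible sum in K382Q cells and 43.9% in K382R cells, and 42.2% of the difference between them. Without it the sum was 109.7 ± 4.27 against 172 ± 6.69 (SD, n = 3).

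**Figure D4:**
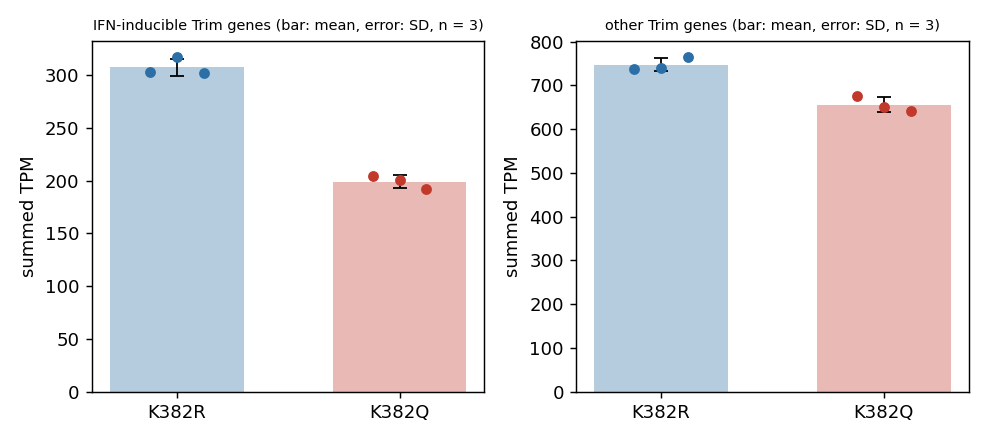
Summed TPM of the IFN-inducible (left) and other (right) *Trim* genes in K382R and K382Q cells, with bars at the mean, error bars for the SD (n = 3) and a point for each library. The K382Q libraries lie at 192 to 204 on the left, below 302 to 317 for K382R, and at 642 to 677 on the right, below 737 to 764.

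Outside the IFN-inducible list, *Trim66* was the 1 member called higher. It belongs to the TIF1 group of chromatin proteins, with a PHD finger and a bromodomain and no RING. *Trim66* (ENSMUSG00000031026.16, chromosome 7, 109048213 to 109107341) had a TPM of 3.11, 3.08 and 3.24 in K382Q cells and 1.68, 1.65 and 2.45 in K382R cells. All K382Q libraries were above all K382R libraries, of which replicate 3 was the highest, and the log2 fold change was 0.60 ± 0.150 (SE; limma, adjusted p = 0.0121). It was 0.73 with median-ratio scaling and not called when low genes were not filtered (adjusted p = 0.0523). None of the related co-repressors *Trim24*, *Trim28* and *Trim33* was called higher. *Trim28*, the partner of KRAB zinc finger proteins and the most abundant member, had 105, 109 and 102 against 134, 138 and 141. Its groups were separate, with a log2 fold change of -0.38 ± 0.0375 (SE; limma, adjusted p = 0.000118). *Trim24* and *Trim33* were not called, with log2 fold changes of -0.03 (95% confidence interval -0.14 to 0.08) and -0.13 (-0.30 to 0.05). Over the alternatives the value of *Trim33* ran from -0.21 to 0.03 and its adjusted p from 0.0220 to 0.833 (limma), so its call depended on the setting.

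The NHL group, whose C-terminal domain binds RNA or protein partners, had 3 kept members and all 3 were lower, where 36.9% of all genes tested were. *Trim2*, known for acting on neurofilament light chain in neurons, had the largest fall outside the IFN-inducible list on the log2(TPM + 0.5) scale, just ahead of *Trim17*. *Trim2* (ENSMUSG00000027993.17, chromosome 3, 84067746 to 84214184) had a TPM of 7.05, 6.86 and 7.09 in K382Q cells and 11.96 ± 0.485 (SD, n = 3) in K382R cells, where the highest library was at 12.4 and the lowest at 11.5. The spread within each group was small beside the gap between them, and the log2 fold change was -0.73 ± 0.0651 (SE; limma, adjusted p = 7.23e-05). Its coverage was low, at 2.17 to 2.71 reads per base in K382Q cells and 3.91 to 5.28 in K382R cells. *Trim3* and *Trim32*, a ligase mutated in a muscular dystrophy, fell by 0.35 and 0.35 on the log2 scale (adjusted p = 0.00335 and 0.00106, limma). All 3 were also called lower with median-ratio scaling, as 20.4% of all genes were, at -0.59, -0.20 and -0.20. *Trim16*, a RING-less member that takes part in the clearance of damaged lysosomes, had 2.51, 2.75 and 2.31 against 3.85, 4.19 and 3.73. It fell in every K382Q library relative to every K382R library, with a log2 fold change of -0.55 ± 0.109 (SE; limma, adjusted p = 0.00414). *Trim17*, a ligase best known in neurons, had 0.429, 0.213 and 0.101 against 0.724, 0.576 and 0.864. It had to be lower, as it passed the filter only through K382R cells, and its log2 fold change of -0.72 had an adjusted p of 0.0346 (limma) that was 0.0848 without K382Q replicate 2, 0.102 without K382Q replicate 3, 0.0815 without K382R replicate 1 and 0.107 without K382R replicate 3. *H2ac25* at a mean TPM of 7.70 overlaps *Trim17* on the same strand.

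Several abundant members had values close to each other in the 2 groups. *Trim35*, implicated in apoptosis and in IRF7 control, had a TPM of 105, 105 and 105 in K382Q cells and 115, 116 and 113 in K382R cells. It was called lower as TPM, with a log2 fold change of -0.13 ± 0.0279 (SE; limma, adjusted p = 0.00662), which is close to the median of all genes tested, and was 0.02 with median-ratio scaling (adjusted p = 0.562), a turn of sign. *Trim59* had 74.1, 61.2 and 64.0 against 64.8, 61.6 and 68.1 and *Trim27* had 48.8, 33.9 and 47.4 against 46.4, 40.4 and 59.7. Both sets of values overlapped between the groups, and neither gene was called (log2 fold changes 0.03, 95% confidence interval -0.14 to 0.20, and -0.17, -0.57 to 0.23). The value of *Trim27* rested on single libraries, at -0.0024 without K382Q replicate 2, -0.02 without K382R replicate 3 and -0.29 without K382R replicate 2. *Trim47* was not called at -0.15 (adjusted p = 0.0579, limma), and single libraries moved it. It was called without K382Q replicate 2, at -0.20 (adjusted p = 0.0131), and with array weights (adjusted p = 0.0355), and was at -0.09 without K382Q replicate 3 (adjusted p = 0.145; 0.0131 to 0.968 over the alternatives). It overlaps *Trim65* on the same strand over 5365 bases, and 4.99% of its 75-base words occur in *Trim65* transcripts.

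The rest of the kept members are named here only for completeness, outside the rule for naming genes. *Trim7*, *Trim8* and *Trim11* were lower, by log2 fold changes of -0.45, -0.23 and -0.40 (adjusted p = 0.0313, 0.0205 and 0.000485, limma). Of these *Trim11* alone was called with median-ratio scaling, and *Gm12184* at a mean TPM of 35.4 overlaps *Trim7* on the other strand. Not called were *Trim13*, *Trim62*, *Trim29*, *Trim23*, *Trim37*, *Trim46*, *Trim44*, *Trim68*, *Trim41*, *Trim69*, *Trim39*, *Trim45* and *Trim65*, with log2 fold changes from -0.31 to 0.08. Over the alternatives the lowest adjusted p was 0.0366 for *Trim23* and 0.0498 for *Trim37* (limma). For *Trim39*, at 13.1 ± 0.530 (SD, n = 3) against 13.1 ± 0.411 (SD, n = 3), the 95% confidence interval of the log2 fold change ran from -0.14 to 0.14. That of *Trim69*, at 0.751 ± 0.317 (SD, n = 3) against 0.731 ± 0.0624 (SD, n = 3), ran from -0.55 to 0.53, so its change was poorly measured at this level.

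**Figure D5:**
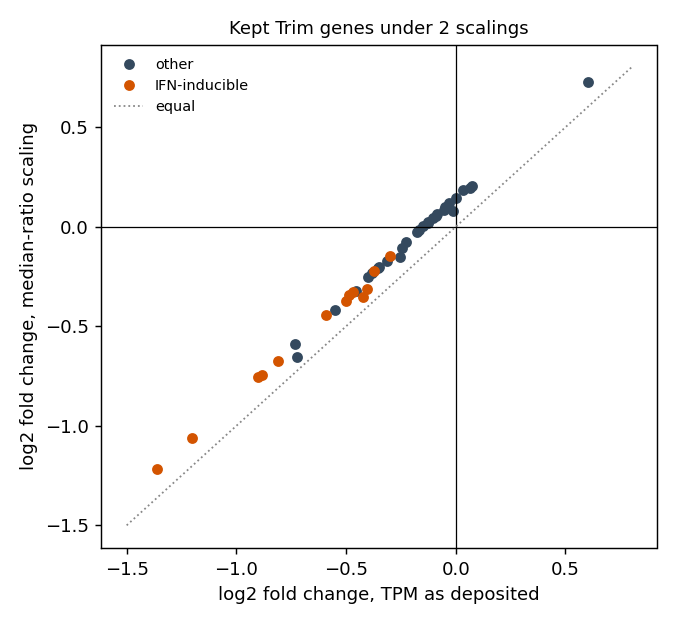
Log2 fold change of each kept *Trim* gene as TPM (horizontal) against that with median-ratio scaling (vertical), with the dotted line marking equal values. The points lie above the line, the IFN-inducible members stay below 0 on both axes, and *Trim35*, called as TPM, changes sign from -0.13 to 0.02, as do several members that were not called.

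Of the 26 members under the filter, 12 were listed at 0 in every library: *Trim31*, *Trim40*, *Trim42*, *Trim43b*, *Trim50*, *Trim52*, *Trim54*, *Trim58*, *Trim60*, *Trim61*, *Trim75* and *Trim80*. The muscle ligases *Trim55* and *Trim63* did not exceed a TPM of 0.170. In 5 members under the filter at least 1 library reached a TPM of 0.5: *Trim15*, *Trim36*, *Trim38*, *Trim43c* and *Trim72*. Nearest to the filter from below, *Trim15* reached it in 2 libraries, with 0.648, 0.198 and 0.303 against 0.385, 0.166 and 0.531. *Trim72*, a protein of membrane repair, had 0.184, 0.126 and 0.283 against 0.436, 0.507 and 0.414, with all K382Q libraries below all K382R libraries. *Trim36* had 0.289, 0.221 and 0.162 against 0.403, 0.597 and 0.355, likewise separate, and *Trim43c* 0.194, 0.241 and 0.526 against 0.357, 0.277 and 0.215, with overlap. Just inside the filter were *Trim17*, *Trim34b* and *Trim69*. *Trim67* was separate in the other direction, at 0.149, 0.172 and 0.190 in K382Q cells against 0.0657, 0.141 and 0.0479, all under the filter. *Trim9*, *Trim10*, *Trim71* and *Trim43a* had a TPM above 0 in some library and stayed under 0.5.

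Family members under other names were few. Of 9 listed 4 were kept, and *Pml* and *Mid2* were lower, where 36.9% of all genes tested were. *Mid2*, a relative of the microtubule-binding *Mid1*, was at -0.26 (adjusted p = 0.0125, limma) and was not called with median-ratio scaling (-0.11, adjusted p = 0.178). *Pml*, which organises nuclear bodies and is induced by IFN, had a TPM of 24.6, 24.1 and 22.7 in K382Q cells and 39.9, 39.4 and 40.7 in K382R cells. Its groups did not overlap, and the log2 fold change was -0.74 ± 0.0454 (SE; limma, adjusted p = 1.2e-05). *Mid1* and *Rnf135*, the RIG-I ligase Riplet, were not called, both at -0.18. Of 27 partner genes, the E2 enzymes that load ubiquitin and the sensing proteins on which TRIM ligases act, 16 were lower, none was higher and 11 were not called, beside 36.9% of all genes lower and 11.1% higher. Their median log2 fold change was -0.25, beside -0.14 over all genes. With median-ratio scaling 10 were lower and 3 higher, beside 20.4% and 19.8% of all genes. At an unadjusted p under 0.05 (limma) 0 were higher as TPM and 6 with median-ratio scaling. The largest falls were those of *Sting1*, the adaptor of DNA sensing, at -1.12 ± 0.0694 (SE; limma, adjusted p = 1.28e-05), of *Ifih1*, the sensor MDA5, at -1.05, and of *Rigi*, the sensor that TRIM25 modifies, at -0.96. *Rigi* had a TPM of 36.8, 39.9 and 37.8 against 71.7, 75.3 and 77.8. *Ube2l6* and *Ube2n*, E2 enzymes for ISG15 and for lysine 63 chains, fell by 0.36 and 0.31 (adjusted p = 0.000625 and 0.00310, limma). Of the other E2 genes *Ube2d1*, *Ube2k* and *Ube2l3* were lower, and *Ube2d2a*, *Ube2d3*, *Ube2e1*, *Ube2v1* and *Ube2v2* were not called. The list joins E2 enzymes with sensing genes, so its count does not describe a single kind of gene. *Mavs*, *Irf3* and *Tab2* were not called, with log2 fold changes of -0.04, -0.10 and -0.04, and the last was called higher with median-ratio scaling, at 0.11. *Tab3* was lower, at -0.31 (adjusted p = 0.00603, limma), and was not called with median-ratio scaling (-0.17, adjusted p = 0.0770).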

How the data were processed

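RNA-seq libraries of 3 K382Q and 3 K382R cultures were compared. According to the labels and methods, reads were trimmed by the authors, HISAT2 was the aligner (GRCm39) and StringTie the quantifier, while the annotation release is not given in the sources used here. The authors deposited, for each library, the coverage (mean read depth per base, a signal without normalization), FPKM and TPM of 56884 genes. TPM deposited by the authors sum to the same total in each library and so are shares. Entries with a repeated gene ID (5 to 8 in a library) were summed. The ratio of coverage to FPKM gave the aligned bases. No counts were analysed here, so no counting interval is given, and 3 replicates set the precision. At most 0.0117% of genes had identical TPM in any pair of libraries.

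The test was limma 3.58.1 (R 4.3.3) with a trend of variance on intensity, run on log2(TPM + 0.5) of genes that reached a TPM of 0.5 in 3 or more libraries, with Benjamini-Hochberg adjustment over all 15426. A log2 fold change on this scale understates the change of low genes.  Exact permutation of 3 against 3 libraries cannot give a two-sided p below 0.1. The test was tried on simulated data, but no outcome of that trial is given here and no result rests on it. Named genes are the kept IFN-inducible members, other members with an adjusted p under 0.05 and a log2 fold change of at least 0.5 in size, and the 5 most abundant others. Members and lists were chosen with earlier results of these data known. Protein sequences were not used here. Steps outside limma used Python 3.11.15, pandas 2.3.3, numpy 2.4.6 and matplotlib 3.10.9.

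Tried instead were pseudocounts of 0.1 and 1, a TPM filter of 1 or none, FPKM, quantile and median-ratio scaling, a fit without the trend, array weights, a block on replicate number, the omission of each library, and a broader IFN-inducible list that adds *Trim8*, *Trim10*, *Trim15*, *Trim31*, *Trim35* and *Trim69*. The count without *Trim17* was added after the data were seen.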

Additional observations from a re-analysis of the deposited data

How the results depend on the processing

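Of the 22 members named by rule, 13 kept their direction and their side of the threshold under each of the 16 alternatives in which they were tested, and *Trim5*, *Trim6*, *Trim17*, *Trim21*, *Trim26*, *Trim35*, *Trim47*, *Trim59* and *Trim66* did not. *Trim59*, called under none of them, turned from 0.03 to -0.05 without K382Q replicate 1 and to -0.0046 without K382R replicate 2, and *Trim47* to 0.0036 with median-ratio scaling and 0.0091 with quantile normalization, where it was not called. The number of other members called lower, 10 of 29 beside 36.9% of all genes, was 6 with median-ratio scaling and 6 with quantile normalization. The shares of all genes called lower were then 20.4% and 21.0%. The number called higher, 1 in the family and among the other members, was 0 with no filter on low values. With a pseudocount of 0.1, 1 other member, *Trim17*, fell by over 2-fold, and with the other settings 0 did. The median log2 fold change of the other members turned from -0.15 to 0.0036 with median-ratio scaling, and *Trim35* turned from -0.13 to 0.024. The median of all genes went from -0.14 to 0.0032, and the share of all calls that were higher went from 23.2% to 49.2% (36.4% with FPKM). With each library left out in turn, 17 to 23 members, 10 to 11 IFN-inducible members and 7 to 12 of 29 other members were lower, beside 32.0% to 35.7% of all genes. The broader list gave 13 of 16 IFN-inducible and 8 of 26 other members lower, beside 36.9% of all genes. With median-ratio scaling or quantile normalization it gave 9 of 16 IFN-inducible members lower, beside 20.4% and 21.0% of all genes. *Trim8* and *Trim35* were not called under either scaling. The deviations of same-numbered libraries from their group means had correlations of -0.018, 0.051 and 0.022. Those of differently numbered libraries ran from -0.064 to 0.039. Values this small over all kept genes cannot show whether the numbers pair the libraries. With the replicate number as a block 20 members were lower, 11 IFN-inducible and 9 other, beside 34.9% of all genes. Low coverage limits *Trim2*, *Trim5*, *Trim6*, *Trim7*, *Trim14*, *Trim17*, *Trim34b*, *Trim62*, *Trim66* and *Trim69*.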
